A study of Rattus norvegicus with 20 samples.

Results

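The response of cultured embryonic rat testes to vinclozolin at 50 µM was described from 4 of the 20 oligonucleotide arrays of the series. The 4 were chosen by their titles, as the 2 vinclozolin cultures and the 2 DMSO cultures of that experiment. All came from Sprague-Dawley rats. Gonads were taken at embryonic day 13 (E13) with the mesonephros, the transient kidney beside the gonad, still attached, and were kept on floating filters for 3 days. Of each pair of gonads, 1 received vinclozolin at 50 µM dissolved in DMSO and the gonad of the other side received DMSO alone, with medium and treatment renewed every day. The testes were then freed of the mesonephros for RNA extraction, and embryos had been sexed by a PCR for Sry. The titles call every array a biological replicate, but the labels do not say whether an array holds 1 animal or a pool, nor which arrays share embryos. The p-values here measure the spread between arrays of the same group, pooled over all 20 arrays of the series. That spread may be partly technical. The other 16 arrays hold testes exposed in utero to vinclozolin at 100 mg/kg per day or to DMSO and taken on E13, E14 or E16 (12 arrays). They also hold a culture with flutamide at 0.5 µM and its ethanol vehicle (4 arrays). The injection period of the in utero arrays was E8 to E14, so that E13 and E14 fall within it and E16 after it.

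Vinclozolin is a dicarboximide fungicide whose metabolites act as antiandrogens. In the fetal testis, Sertoli cells form cords around the germ cells and secrete Amh, while Leydig cells between the cords make androgen from cholesterol with the products of Star, Cyp11a1, Hsd3b1 and Cyp17a1, and secrete Insl3. The aryl hydrocarbon receptor (AhR) and the receptors CAR and PXR are separate routes by which foreign chemicals can alter transcription. Cyp1b1, Nqo1 and Tiparp are target genes of AhR, and Ephx1 and Abcc2 of CAR and PXR.

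The deposited values are a scanner signal on a linear scale. The 4 arrays had the same trimmed mean, 218.1, and their medians lay between 65.7 and 68.5. An intensity of 39.6 to 41.0 marked the 40th percentile of an array, below which readings are close to background. Beta-actin signal at the 3' end relative to the 5' end, a ratio that grows as RNA degrades, was 3.12 and 2.89 with DMSO and 2.67 and 3.90 with vinclozolin, so vinclozolin replicate 2 had the highest ratio. The 4 arrays did not sort by treatment: across probe sets, DMSO replicate 1 correlated most with vinclozolin replicate 1 (r = 0.984), against 0.972 between the DMSO arrays and 0.975 between the vinclozolin arrays. DMSO replicate 2 stood at least 2-fold apart from all 3 other arrays in 176 probe sets (135 of them above) and vinclozolin replicate 2 in 105 (87 of them below), compared with 30 and 34 for the arrays numbered 1. The markers matched a testis, with Amh at 1902.3 to 3972.4 and Hsd3b1 at 3578.0 to 4259.7, and Eif2s3y, a Y-linked gene, at 3115.1 to 3330.2. Vinclozolin replicate 2 also carried Xist, the RNA of an inactive X chromosome, although its label is male, and results with and without it are given below.

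No probe set passed the test for an effect of vinclozolin in culture. Of 22526 probe sets tested with limma, 0 had an adjusted p under 0.05, and the adjusted p was 0.999945 for every gene named here. The unadjusted p was under 0.05 for 610 (2.71%), of which 338 (1.5%) were higher and 272 (1.21%) lower. The count past the adjusted threshold was also 0 under all 13 other settings, among which the smallest adjusted p ranged from 0.424508 to 1. The vinclozolin arrays both lay above the DMSO arrays for 3508 probe sets (15.6%) and both below for 2987 (13.3%). Groups of 2 arrays often separate without any effect, so lack of overlap is a description only. Of the 6495 (28.8%) without overlap, 722 (3.21%) differed by at least 1.5-fold, 305 (1.35%) higher and 417 (1.85%) lower. Those that also had an unadjusted p under 0.05 numbered 368 (1.63%), 176 (0.781%) higher and 192 (0.852%) lower. The median absolute log2 difference was 0.15 between the group means. It was 0.23 between the 2 DMSO arrays and 0.23 between the 2 vinclozolin arrays. A mean of 2 arrays varies less than 1 array, so the first value would be the smaller even without an effect. These values therefore do not rank the treatment difference against the spread. The median standard error was 0.24 on the log2 scale. The 95% interval lay within 2-fold in either direction for 18467 probe sets (82.0%), so changes larger than that lie outside the interval for those probe sets.

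The genes described next were selected on these 4 arrays by the size of their difference, and their values are a description. All fold values are differences of log2(intensity + 16), which understates the change of dim genes. Hspa4, a chaperone of the Hsp110 family (chromosome 10, 37908866 to 37951994 in the GRCr8 assembly), read 238.3 and 141.4 with DMSO and 47.8 and 52.0 with vinclozolin, a log2 difference of -1.60 (SE 0.62). Both vinclozolin arrays lay together and clearly under both DMSO arrays. Cct6a, a subunit of the cytosolic chaperonin CCT, read 307.7 and 735.1 with DMSO and 191.4 and 180.1 with vinclozolin (-1.29, SE 0.41). Here the DMSO arrays lay farther from each other than the lower of them lay from the vinclozolin arrays. Retreg3, a receptor for turnover of the endoplasmic reticulum by autophagy, read 234.8 and 213.2 against 108.9 and 74.2 (-1.18, SE 0.28), with close DMSO arrays and no overlap. Aph1a, a subunit of gamma-secretase, read 633.6 and 339.2 against 274.8 and 151.9 (-1.12, SE 0.30), with both groups spread and the lower DMSO array near the higher vinclozolin array.

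Tiparp, an ADP-ribosyltransferase induced by AhR (chromosome 2, 152063769 to 152090414), had the second largest difference of the lower genes. The probe set named by the rule read 281.7 and 334.7 with DMSO and 141.4 and 67.9 with vinclozolin, a log2 difference of -1.49 (SE 0.46, 95% interval -2.45 to -0.53). The other Tiparp probe set read 461.4 and 384.8 with DMSO and 436.2 and 384.1 with vinclozolin (-0.04), with overlapping groups. The Tiparp promoter is shown because Tiparp is the textbook AhR target among the lower genes, with the AhR core motif GCGTG in capitals, here on the opposite strand as CACGC. It spans chr2:152063519-152063818 on the plus strand of GRCr8 (RefSeq), from 250 bases before to 50 bases after the gene start, and the match begins 136 bases before the start.
Tiparp: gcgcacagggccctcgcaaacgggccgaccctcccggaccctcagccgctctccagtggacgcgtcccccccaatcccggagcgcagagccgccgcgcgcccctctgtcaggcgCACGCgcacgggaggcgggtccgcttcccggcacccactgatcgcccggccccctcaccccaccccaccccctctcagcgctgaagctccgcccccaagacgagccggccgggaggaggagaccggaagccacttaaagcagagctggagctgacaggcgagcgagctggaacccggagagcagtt
The Cct6a promoter, chr12:32519023-32519322 on the minus strand, is shown because it is 1 of the 2 promoters of named genes with AGAACA, 1 arm of the palindrome bound by the glucocorticoid receptor and related steroid receptors, in capitals on either strand (TGTTCT on the opposite strand).
Cct6a: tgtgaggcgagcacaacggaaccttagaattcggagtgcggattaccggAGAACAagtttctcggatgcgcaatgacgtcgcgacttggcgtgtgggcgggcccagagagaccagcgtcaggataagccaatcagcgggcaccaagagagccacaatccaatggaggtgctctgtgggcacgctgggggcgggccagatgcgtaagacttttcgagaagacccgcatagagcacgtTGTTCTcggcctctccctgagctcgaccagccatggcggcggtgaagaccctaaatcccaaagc
Searched on both strands, GCGTG was present in 9 of the 19 named genes with a promoter entry (the other 5 of 24 had none) and in 29.7% of all 33465 promoters of the same length. AGAACA was present in 2 of the 19, those of Cct6a and C3h15orf48, and in 20.7% of all promoters. The whole palindrome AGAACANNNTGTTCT, which contains AGAACA, was found in 0 of the 19 and in 5 promoters overall (0.0149%). A match here is of letters only.

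The disagreement between Tiparp probe sets recurred across the lower genes. Of the 12, 7 had other tested probe sets, 8 in number, whose log2 differences ran from -0.37 to 0.34, and 1 of the 8 lay below DMSO without overlap. All 8 were brighter than the named probe set of the same gene. Rtn4, the reticulon known as Nogo, read 634.2 and 379.0 with DMSO and 317.3 and 107.4 with vinclozolin in the named probe set (-1.32, SE 0.45). Its other probe set read 2162.0 and 2106.5 against 2295.5 and 2243.8 (0.09), slightly higher with vinclozolin. Fndc3b, a fibronectin domain protein, read 75.3 and 53.8 against 27.1 and 14.2 (-1.15, SE 0.29) in the named probe set. A second Fndc3b probe set went the same way without overlap, 543.5 and 537.8 against 414.6 and 412.0 (-0.37), and 1 more stood at 0.05. Rhobtb3 read 47.2 and 72.7 against 20.2 and 22.1 (-1.01, SE 0.40), while its other probe set stood at 0.07. The second probe set also differed little for Cct6a (-0.07) and for Pafah1b1, a regulator of dynein (-0.01 against -1.22). Stk4, the Hippo pathway kinase Mst1, had opposite signs (-1.06 in the named probe set and 0.34 in the other). Over all 241 probe sets with 1 symbol that met the no-overlap, 1.5-fold and unadjusted p criteria, 123 had others for the same gene, 185 in all, of which 65.4% had the same sign and 28.1% lay on the same side without overlap.

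**Figure D1:**
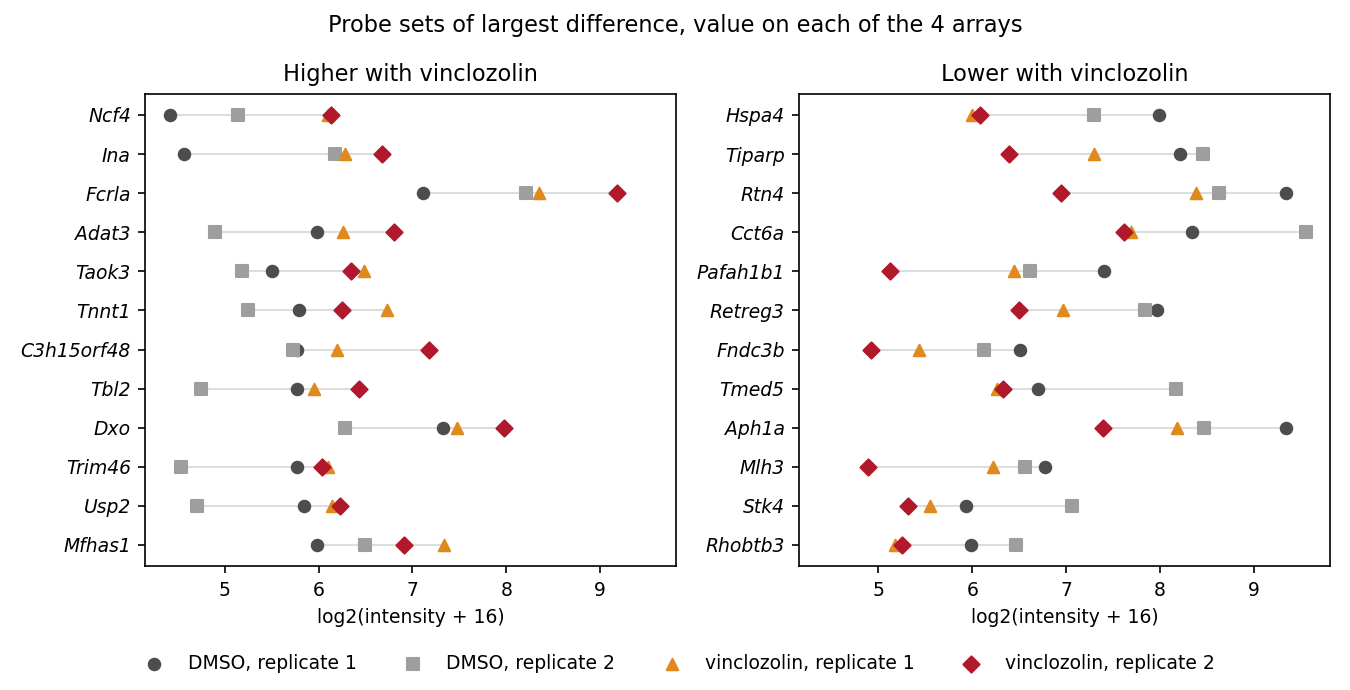
Log2(intensity + 16) of the 24 genes of largest difference on each of the 4 arrays, 12 higher (left) and 12 lower (right) with vinclozolin, with 1 point per array. In every row the 2 vinclozolin points lie on the same side of the 2 DMSO points, which is how the genes were chosen, and the distance between points of 1 group often equals the distance between groups, as for Cct6a and Tmed5.

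The 12 higher genes were mostly dim, and their DMSO readings were often below the 40th percentile. Ncf4, the p40phox subunit of the phagocyte NADPH oxidase (chromosome 7, 111705926 to 111723893), read 5.3 and 19.3 with DMSO and 52.4 and 54.3 with vinclozolin, a log2 difference of 1.34 (SE 0.34). Both DMSO readings were near background and the vinclozolin readings close together. Taok3, a kinase of the TAO family, read 29.4 and 20.3 against 73.3 and 65.5 (1.07, SE 0.43), and its other tested probe set differed by 0.26 without overlap. Tnnt1, the slow skeletal troponin T, read 39.5 and 21.9 against 89.9 and 60.2 (0.97, SE 0.30). Mfhas1, a leucine-rich repeat GTPase, read 47.3 and 74.0 against 145.6 and 104.0 (0.88, SE 0.29). Its second tested probe set was higher as well (89.0 and 108.2 against 135.3 and 139.7, 0.43) and the last overlapped at -0.05. Fcrla, an Fc receptor-like protein, had the highest readings among the higher genes, 122.7 and 279.6 against 311.3 and 563.5 (1.10, SE 0.43), with DMSO replicate 2 close to vinclozolin replicate 1. Of the 12, 5 had other tested probe sets, 6 in number, with log2 differences from -0.05 to 0.43 and 3 of the 6 above DMSO without overlap. All 6 were brighter than the named probe set of the same gene.

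A difference was taken to rest on 1 array where the other array of that group alone was under 1.5-fold from the mean of the opposite group. By that measure 256 of the 722 probe sets (35.5%) rested on vinclozolin replicate 2 and 113 (15.7%) on vinclozolin replicate 1. The DMSO arrays carried as much: 313 (43.4%) rested on DMSO replicate 2 and 134 (18.6%) on DMSO replicate 1. A total of 165 (22.9%) rested on none of the 4, and a probe set could rest on an array of each group. Vinclozolin replicate 2 carried more of the lower probe sets (165 of 417, 39.6%) than of the higher ones (91 of 305, 29.8%). It was the farther of the 2 vinclozolin arrays from the DMSO mean in 462 of 722. Among the 368 that also had an unadjusted p under 0.05, 120 (32.6%) rested on vinclozolin replicate 2, 127 (34.5%) on DMSO replicate 2 and 128 (34.8%) on none. Just inside the 1.5-fold limit lay Gda (0.59) and Pls1 (-0.59), and just outside lay Slc1a6 (-0.58) and Atrx (-0.58).

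**Figure D2:**
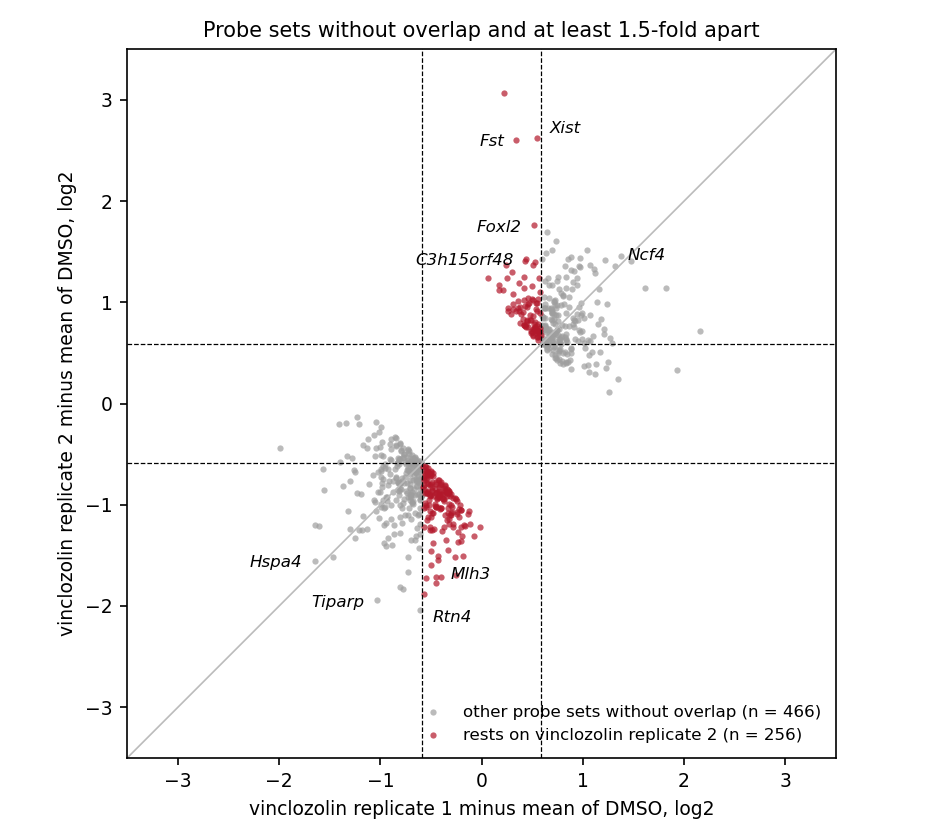
For the 722 probe sets without overlap and at least 1.5-fold apart, the log2 difference of vinclozolin replicate 1 (x axis) and of vinclozolin replicate 2 (y axis) from the mean of the DMSO arrays, with 1 point per probe set. Dashed lines mark 1.5-fold and the grey line equal differences. The 256 red points rest on vinclozolin replicate 2, and Xist, Fst and Foxl2 lie far above the line of equality.

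Of the 24 genes of largest difference, 12 rested on none of the 4 arrays, 4 of the higher (Ncf4, Taok3, Tnnt1 and Mfhas1) and 8 of the lower (Hspa4, Tiparp, Rtn4, Cct6a, Retreg3, Fndc3b, Aph1a and Rhobtb3). Rtn4 was only just among them. Its log2 difference from the DMSO mean was -0.60 on vinclozolin replicate 1, barely past 1.5-fold, and -2.04 on replicate 2. Another 7 rested on DMSO replicate 2, and 2, Ina and Fcrla, on DMSO replicate 1. Those on DMSO replicate 2 were Adat3, Tbl2, Dxo, Trim46 and Usp2, higher with vinclozolin, and Tmed5 and Stk4, lower. Tmed5, a cargo receptor of the early secretory pathway, read 88.2 and 273.3 with DMSO and 61 and 64.5 with vinclozolin (-1.14), so that DMSO replicate 2 alone was high. Usp2, a deubiquitinase, read 41.7 and 10.1 against 54.6 and 59.2 (0.91), so that DMSO replicate 2 alone was low. Vinclozolin replicate 2 carried 3: C3h15orf48, Pafah1b1 and Mlh3. C3h15orf48, a small mitochondrial protein gene, read 38.5 and 37.2 with DMSO and 57.1 and 129.2 with vinclozolin (0.94). Mlh3, a DNA mismatch repair protein with a role in meiosis, read 93.4 and 78.8 against 58.6 and 13.7 (-1.11). In both, vinclozolin replicate 1 lay outside the DMSO range by far less than vinclozolin replicate 2.

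The higher genes of largest difference that rested on vinclozolin replicate 2 were Xist, Fst, Foxl2, Lztr1 and C3h15orf48, and the lower ones Pafah1b1, Mlh3, Dido1, Creb1 and Dcbld2. Fst, the activin antagonist follistatin and a gene of the ovarian supporting cell (chromosome 2, 47856345 to 47863670), read 20.8 and 24 with DMSO and 32.7 and 216.9 with vinclozolin. Foxl2, the transcription factor that maintains ovarian granulosa cells, read 8.6 and 30.3 against 32.4 and 98.4. Irx3, another gene of the early ovary, read 13.4 and 14.5 against 19.4 and 61.1. All 3 were high on vinclozolin replicate 2 alone. Xist was high on the same array in all 4 of its probe sets, at 112.8, 130.6, 60.3 and 44.0, while the other 3 arrays read at most 18.7. A probe set with no gene symbol had the largest difference of this kind, 3.07 on vinclozolin replicate 2 and 0.22 on replicate 1. Other genes of the ovary-type list differed from this pattern. Msx1, a homeobox transcription factor, was lowest on vinclozolin replicate 2 (25.1 and 41.2 with DMSO, 22.5 and 7.7 with vinclozolin). Wnt4, a signal of ovary development, read 648.7 and 550.7 with DMSO and 657.6 and 671.2 with vinclozolin, and Bmp2 read 261.9 and 273.2 against 245.0 and 209.1. The summed intensity of the 12 tested ovary-type genes was 13401.5 and 14508.6 with DMSO and 13443.2 and 18079.7 with vinclozolin, a sum dominated by Ctnnb1. Of that list, 5 members lay above DMSO without overlap (41.7%, against 18.2% of all genes) and 2 below (16.7%, against 10.2%). Y-linked Eif2s3y was level on all 4 arrays (3319.7 and 3115.1 against 3330.2 and 3218.0). Uty, also Y-linked, was lowest on vinclozolin replicate 2 (575.9 and 544.4 against 564.5 and 443.5), and Sry, dim on every array, was lowest there too (8.5 and 32.5 against 22.8 and 6.7). The part of these transcripts in the other differences of vinclozolin replicate 2 was not tested. In the flutamide experiment, whose scale is lower, Xist (168.2 to 211.9 in the first probe set) and Fst (132.9 to 241.1) were detected on all 4 arrays, vehicle included.

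**Figure D3:**
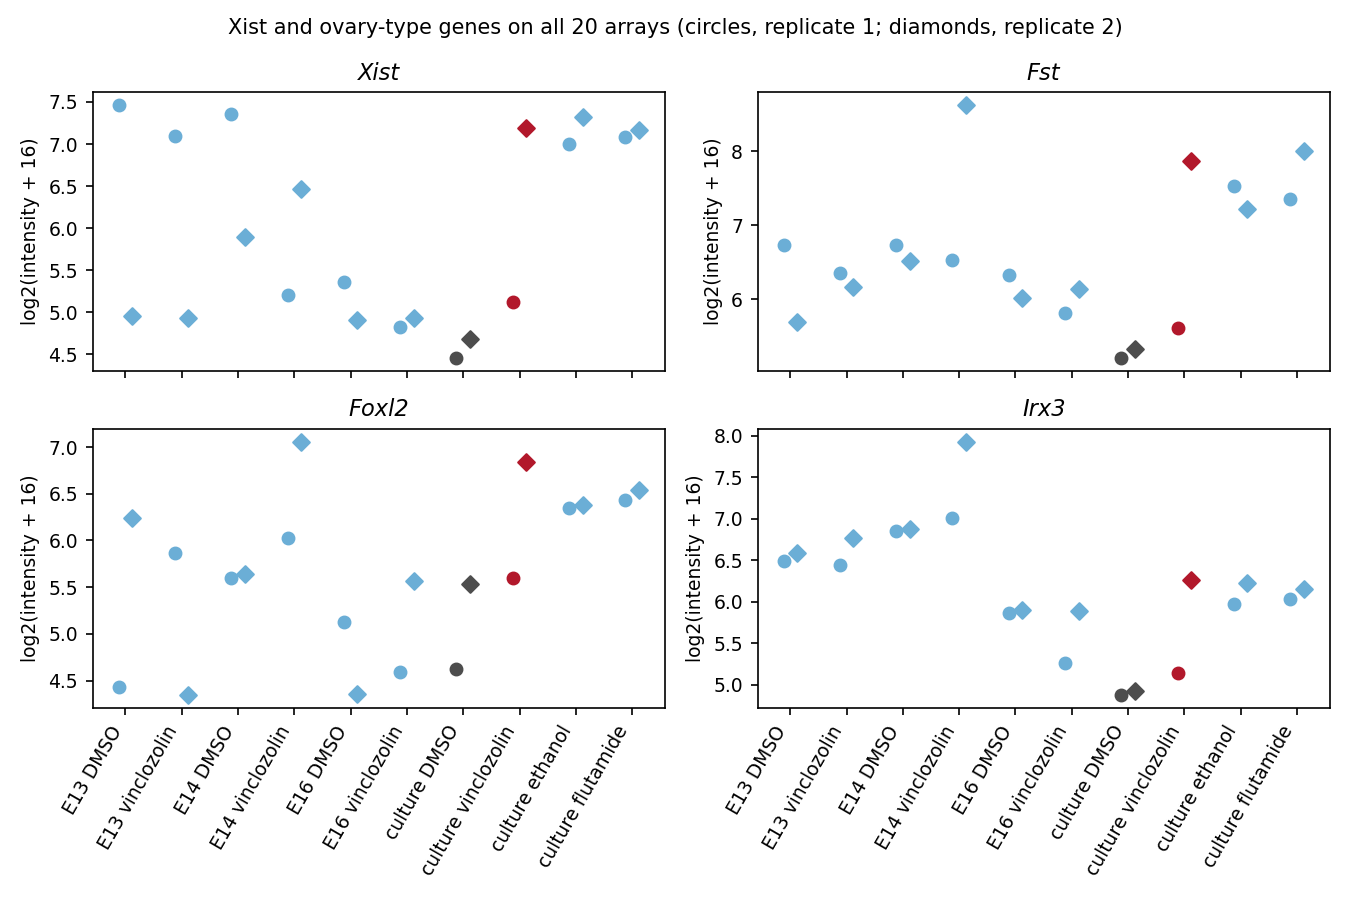
Log2(intensity + 16) of Xist, Fst, Foxl2 and Irx3 (1 probe set each) on all 20 arrays, by group, with circles for replicate 1 and diamonds for replicate 2. In the DMSO and vinclozolin cultures only vinclozolin replicate 2 stands high for Xist, Fst and Irx3, while the ethanol and flutamide cultures, on another scale, are high throughout.

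Without vinclozolin replicate 2, limma gave 492 probe sets at an unadjusted p under 0.05 and 0 past the adjusted threshold, against 610 and 0 with it. Without vinclozolin replicate 1 the first count was 1068, without DMSO replicate 1 it was 1237 and without DMSO replicate 2 it was 473. The count thus moved most when an array numbered 1 was left out. The genes highest on DMSO replicate 2 alone, named after their values were seen, included Topbp1, a DNA damage checkpoint protein (70.9 and 271.5 with DMSO against 79.0 and 81.7), the RNA helicase Ddx6 (538.8 and 1481.6 against 472.8 and 396.1) and the splicing factor Sf3b1 (276.2 and 810.4 against 313.1 and 295.3). In these 3 genes DMSO replicate 1 read like the vinclozolin arrays.

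The steroid-producing genes, which read the Leydig cell, showed no difference beyond the spread. Star, which brings cholesterol into mitochondria, read 509.2 and 665.7 with DMSO and 557.1 and 467.0 with vinclozolin, a log2 difference of -0.19 (95% interval -0.64 to 0.27). Cyp11a1, the side-chain cleavage enzyme, read 589.5 and 616.4 against 607.5 and 509.7 (-0.11, -0.54 to 0.31). Cyp17a1, the 17-alpha-hydroxylase, read 666.5 and 955.0 against 791.5 and 779.3 (-0.02, -0.85 to 0.81). In all 3 the groups overlapped. Hsd3b1 was lower without overlap by a small margin, 4259.7 and 3994.0 against 3812.5 and 3578.0 (-0.16, -0.89 to 0.58). Insl3 read 251.6 and 213.4 against 263.5 and 173.8 (-0.11, -1.11 to 0.90). For the probe sets of Star, Cyp11a1, Cyp17a1 and Hsd3b1 given here the interval excludes a 2-fold lower level, while for Insl3 it does not. A second tested Star probe set read 345.9 and 480.3 with DMSO and 411.1 and 209.5 with vinclozolin (-0.45), with overlap. The exclusion does not extend to that probe set, which was lowest on vinclozolin replicate 2. Of the 19 tested Leydig cell genes, 4 were higher and 1 lower without overlap, 0 had an unadjusted p under 0.05, and the median log2 difference was -0.00, against 18.2% higher, 10.2% lower and a median of 0.04 over all 11677 genes, where 1.7% were higher and 0.848% lower at an unadjusted p under 0.05. Fewer Leydig cells and less RNA per cell cannot be told apart in such whole-tissue values, here or for any other cell type.

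**Figure D4:**
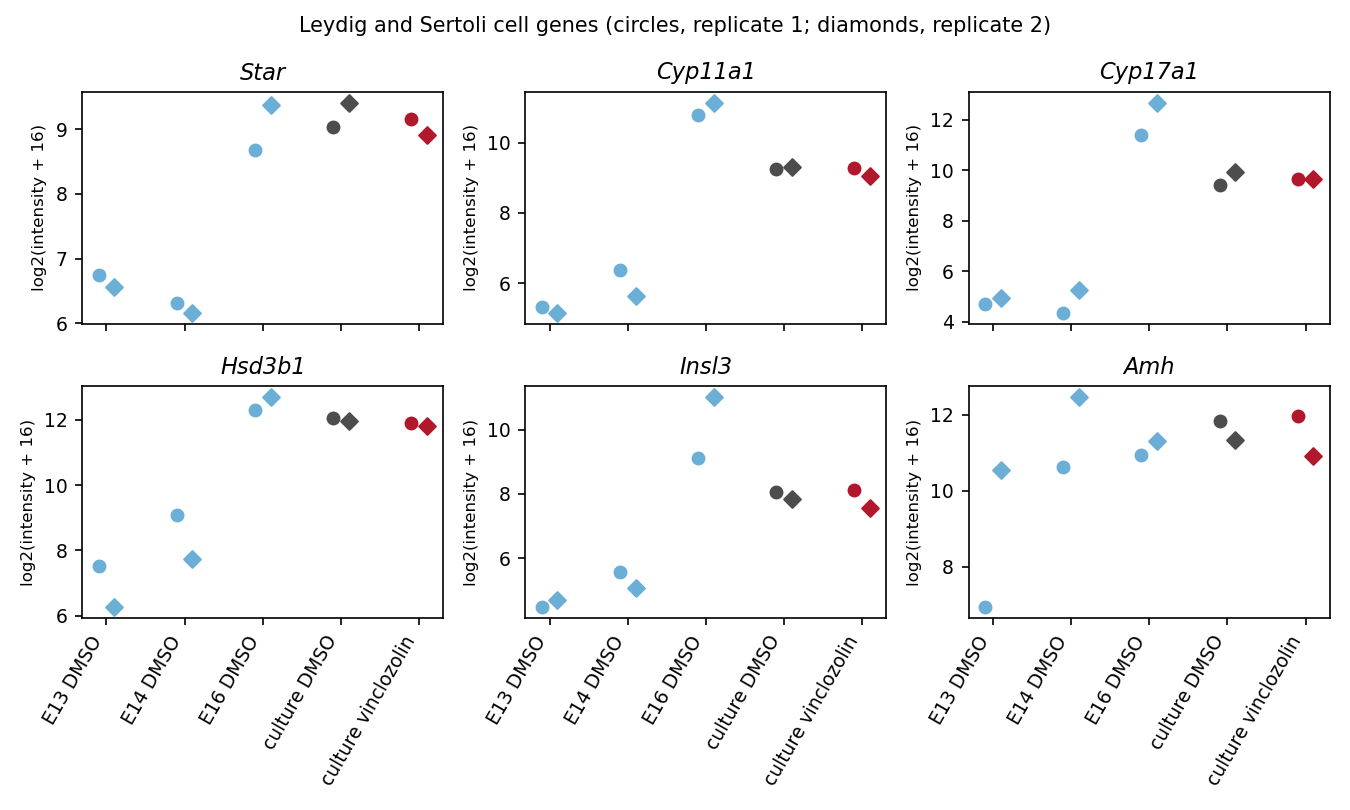
Log2(intensity + 16) of 5 Leydig cell genes and Amh in vehicle testes of E13, E14 and E16 and in both culture groups, 2 points per group with circles for replicate 1 and diamonds for replicate 2. Vinclozolin and DMSO cultures overlap except for Hsd3b1, and both lie above the E13 vehicle testes for each of the 6 genes.

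These genes were well expressed in both culture groups, so that a lower level could have been read. Cyp17a1 was at 10.0 and 15.1 in vehicle testes of E13, the age at which culture began, and at 666.5 to 955.0 on the 4 culture arrays. Insl3 was at 6.1 and 10.1 at E13 and at 173.8 to 263.5 in culture. In vehicle testes of E16, the age the cultures had nominally reached, Cyp17a1 read 2657.0 and 6521.8 and Insl3 535.5 and 2066.1. In utero and culture arrays were scaled separately, and levels set across them carry that limit.

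Sertoli cell genes likewise showed no difference beyond the spread. Amh read 3613.3 and 2550.0 with DMSO and 3972.4 and 1902.3 with vinclozolin, a log2 difference of -0.14 with a 95% interval of -1.82 to 1.53. Amh also differed between replicates elsewhere in the fit, as in the E13 vehicle testes (106 and 1484.7). Dhh, the hedgehog ligand that Sertoli cells send to Leydig precursors, read 424.3 and 406.5 against 467.4 and 319.2, and Wt1 read 2836.4 and 2179.0 against 2780.0 and 2323.9, both with overlap. Fgf9, a growth factor of testis determination, read 340.6 and 290.2 against 280.5 and 250.3 (-0.23), lower without overlap. Of 22 tested Sertoli cell genes, 4 were higher (18.2%, the same share as of all genes) and 3 lower (13.6%, against 10.2%) without overlap. Their median was 0.07. The median was 0.12 on vinclozolin replicate 1 and -0.10 on replicate 2. Gata1, a Sertoli and red cell factor, read 27.8 and 35.6 against 20.2 and 3.9 (-0.83, 95% interval -1.59 to -0.06), at readings under the 40th percentile on all 4 arrays.

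The androgen list was made of coregulators and androgen-responsive genes. Of its 20 tested genes, 2 were higher (10.0%, against 18.2% of all genes) and 2 lower (10.0%, against 10.2%) without overlap. With limma, 0 had an unadjusted p under 0.05, and the median log2 difference was 0.08. Fkbp5, a chaperone cofactor whose gene responds to androgen and glucocorticoid, read 906.7 and 727.9 with DMSO and 906.8 and 821.2 with vinclozolin, with overlap. Rhox5, a homeobox gene of the Sertoli cell driven by androgen, read 41.9 and 54.3 against 45.2 and 111.0, so only vinclozolin replicate 2 was high. Ncoa1, a receptor coactivator, read 522.9 and 470.6 against 523.3 and 709.0 (0.29), higher without overlap by a small margin. Herc3, a ubiquitin ligase, read 216.3 and 193.3 against 158.8 and 170.1 (-0.29), lower without overlap.

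Of 6 tested AhR targets, each read by its brightest probe set, 0 were higher and 0 lower without overlap, against 18.2% and 10.2% of all genes. The dimmer Tiparp probe set described above, lower by -1.49, is not in that count. Slc7a5, an amino acid transporter and the member of smallest p, read 113.7 and 48.2 with DMSO and 59.1 and 37.7 with vinclozolin (-0.52), with overlap. Cyp1b1 read 425.2 and 355.5 with DMSO and 408.3 and 607.0 with vinclozolin, Nqo1 read 344.2 and 296.8 against 339.0 and 368.2, and Ahr itself read 32.5 and 25.4 against 31.3 and 32. None of these 3 was apart. Of the 10 targets of CAR and PXR, 2 were higher (20.0%, against 18.2% of all genes) and 3 lower (30%, against 10.2%) without overlap. Ephx1, microsomal epoxide hydrolase, read 430.9 and 396.8 against 317.2 and 274.7 (-0.46, 95% interval -0.99 to 0.06). Abcc2, an export pump, read 13.1 and 21.5 against 4.5 and 0.7 (-0.84), all under the 40th percentile. Of 28 NRF2 and glutathione genes, which answer oxidative stress, 6 were higher (21.4%) and 1 lower. Keap1, the inhibitor of NRF2, read 203.8 and 167.9 against 245.5 and 239.0 (0.36, 95% interval -0.01 to 0.74).

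In the stress and metabolic lists, Pdia3, a disulfide isomerase of the endoplasmic reticulum, read 1418.0 and 1312.2 with DMSO and 765.0 and 783.0 with vinclozolin, a log2 difference of -0.80 (95% interval -1.24 to -0.37). The arrays of each group lay close together and far from the other group, and the difference rested on none of the 4 arrays. A second Pdia3 probe set read 46.8 and 63.9 against 46.6 and 47.4 (-0.17), with 1 vinclozolin array just below the DMSO arrays and 1 between them. Of the 22 chaperone genes of that compartment, 2 were higher (9.1%, against 18.2% of all genes) and 2 lower (9.1%, against 10.2%) without overlap. Pgk1, a glycolytic kinase, read 4140.5 and 4834.4 against 3035.7 and 3053.1 (-0.55, 95% interval -1.02 to -0.08), and another probe set went the same way by -0.15. Atf3, a transcription factor induced by stress, read 10.7 and 17.8 against 56.5 and 31.1 (0.96, 95% interval 0.18 to 1.74). In the amino acid response list, which holds Atf3, 12 of 39 genes were higher (30.8%, against 18.2% of all genes) and 4 lower, with a median of 0.08, and in the immediate early list 8 of 22 were higher (36.4%, against the same 18.2%) and 2 lower, with a median of 0.11. Sesn2 read 410.8 and 383.5 against 504.9 and 552.1 (0.40), and Klf4 169.8 and 117.7 against 192.1 and 213.3 (0.47). Atf4, the factor the first of these lists is named for, read 1863.7 and 1936.4 against 2114.1 and 1853.2, with overlap, and Fos, the best known immediate early gene, read 70.4 and 69.7 against 70.9 and 84.4.

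In cholesterol synthesis, 3 of 20 genes were higher (15%, against 18.2% of all genes) and 2 lower (10%, against 10.2%) without overlap. Lss, lanosterol synthase, read 267.2 and 275.1 against 452.0 and 311.8 (0.45, 95% interval 0.02 to 0.88), and Mvd, mevalonate decarboxylase, read 139.5 and 126.6 against 253.1 and 181.9 (0.63, 0.02 to 1.24), both highest on vinclozolin replicate 1. Bst2, an interferon-induced membrane protein, read 3439.2 and 3215.1 against 2384.8 and 1272.4 (-0.93, 95% interval -1.68 to -0.18) and rested on vinclozolin replicate 2. Of the 16 tested interferon genes, 14 stood above 0, as did 6867 of all 11677 genes. Without overlap, 2 were higher (12.5%, against 18.2% of all genes) and 1 lower (6.25%, against 10.2%). Of 16 retinoic acid genes, 6 were lower (37.5%, against 10.2% of all genes) and 1 higher without overlap, with a median of -0.06. Cyp26b1, which degrades retinoic acid in the fetal testis, read 2686.4 and 2831.2 against 2515.7 and 2260.0 (-0.21), and Rdh10, which makes its precursor, read 218.5 and 180.7 against 168.1 and 146.3 (-0.31). Of the cytosolic ribosomal protein genes, 32 of 33 stood above 0 (6867 of 11677 over all genes), but 1 was higher without overlap. Their median was -0.03 on vinclozolin replicate 1 and 0.32 on replicate 2, and the median of 0.14 became 0.00 after quantile normalization.

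The lists that mark other cells are set here against the background of 18.2% higher and 10.2% lower. Endothelial genes had 1 of 21 higher (4.8%) and 2 lower (9.5%) without overlap, with a median of 0.10. Red blood cell genes had 2 of 19 higher (10.5%) and 3 lower (15.8%), with a median of 0.01. Macrophage genes had 3 of 18 higher (16.7%) and 4 lower (22.2%), with a median of -0.03. The germ cell list had the largest median, 0.54 (0.36 on vinclozolin replicate 1 and 0.77 on replicate 2), with 5 of 10 tested genes higher without overlap and 0 lower. Its summed intensity was low, 250.2 and 334.2 with DMSO and 389.0 and 558.2 with vinclozolin, and 4 of the 10 were under the 40th percentile on all 4 arrays. Piwil2, a protein of the germline piRNA pathway, read 16.4 and 12.7 against 26.9 and 38.0, and Nanos3, an RNA-binding protein of primordial germ cells, 45.1 and 22.5 against 54.5 and 62.4. Piwil2 was under the 40th percentile on all 4 arrays. Both genes rested on DMSO replicate 2 and on vinclozolin replicate 2. The adrenal, sympathetic and neural crest list had 8 of 15 higher (53.3%, against 18.2% of all genes) and 0 lower, with a median of 0.28. Prph, an intermediate filament of peripheral neurons, read 74.2 and 75.0 against 123.9 and 139.1 (0.70, 95% interval 0.11 to 1.29), close within each group. Sox10, a neural crest factor, read 7.9 and 11.5 against 35 and 31.5 (0.94, 95% interval -0.09 to 1.97), under the 40th percentile on all 4 arrays. Dbh, of noradrenaline synthesis, read 80.2 and 98.3 against 159.0 and 114.5 (0.53). Cyp21a1, the adrenal 21-hydroxylase, went the other way, 43.5 and 75.6 against 64.1 and 4.4 (-0.87), low on vinclozolin replicate 2 alone. The summed intensity of that list was 1183.8 and 1261.9 with DMSO and 1688.7 and 1287.1 with vinclozolin. Of 19 genes of the mesonephros and tubules, 5 were higher and 2 lower. Epcam, an epithelial adhesion protein, read 101.7 and 72.5 against 111.0 and 159.8, and the list's sum was 3412.8 and 2128.7 against 3370.4 and 2984.5, with DMSO replicate 2 lowest. How far remnants of these tissues enter the differences was not tested.

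**Figure D5:**
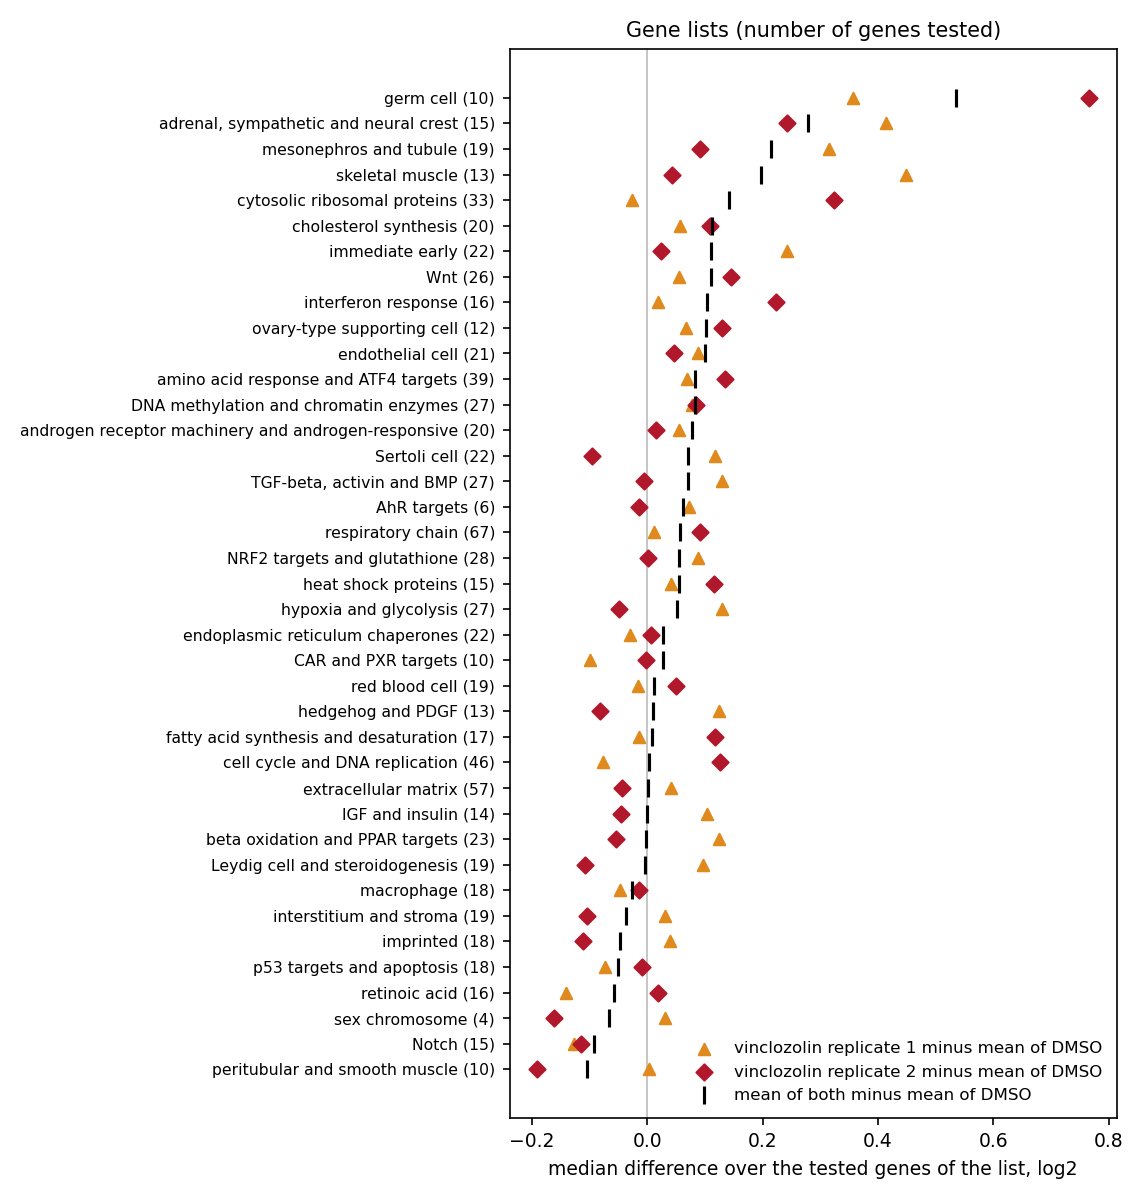
Median log2 difference over the tested genes of each of 39 lists, from the mean of the DMSO arrays, for vinclozolin replicate 1 (triangles), replicate 2 (diamonds) and the mean of both (bars). Most bars lie within 0.2 of 0, and the replicates often fall on opposite sides of 0, as for Leydig cell (0.10 and -0.11) and Sertoli cell genes (0.12 and -0.10).

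The in utero arrays hold the same compound in the same vehicle, by another route and with separate controls. The difference between the culture effect and the mean in utero effect had 0 probe sets past the adjusted threshold with limma and 846 (3.76%) at an unadjusted p under 0.05. In utero, the first Xist probe set also read 758.6 on E13 DMSO replicate 1, 896 on E13 vinclozolin replicate 1, 174.9 and 184.4 on the E14 DMSO arrays and 489.9 on E14 vinclozolin replicate 2, which carried Fst (379.8), Foxl2 (117.3) and Irx3 (228.1) as well, and its part in the in utero effect was not tested. At E16, Xist in that probe set read 2.4 to 16.6. Of the 192 probe sets lower in culture at 1.5-fold, without overlap and with an unadjusted p under 0.05, 57 (29.7%) were below 0 in the in utero mean, against 46.7% of all tested. The ages differed: 31.3% were below 0 at E13 (48.3% of all), 64.1% at E14 (52.4% of all) and 27.6% at E16 (43.9% of all). Of the 176 higher ones, 97 (55.1%) were above 0 in the in utero mean, against 53.3% of all, with 40.9% at E13 (51.7% of all), 50.0% at E14 (47.6% of all) and 65.3% at E16 (56.1% of all). Tiparp, in the named probe set, differed by -1.49 in culture and by 1.06, -0.07 and 0.53 in utero at E13, E14 and E16, and Aph1a by -1.12 in culture and 0.24, 0.31 and 0.10 in utero. Hspa4 was at 0.22, -0.61 and -0.03 in utero. The difference between the culture effect and the in utero mean was -2.0 for Tiparp (SE 0.53, adjusted p = 0.996) and -1.34 for Aph1a.

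Flutamide, a nonsteroidal antiandrogen of another structure, was given at 0.5 µM in ethanol, so its values stand beside those of vinclozolin without a comparison. The 12 genes lower with vinclozolin stood between -0.20 and 0.38 with flutamide, 11 of them above 0, against 126 (65.6%) of the 192 lower probe sets and 11936 of all 22526 tested. The 12 higher ones stood between -0.37 and 0.81, with 7 above 0, against 102 (58.0%) of the 176 higher probe sets. Ncf4 was at -0.37, Hspa4 at 0.28 and Tiparp at -0.20.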

How the data were processed

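Affymetrix rat genome arrays of 20 embryonic testis samples were used, 4 of them the vinclozolin culture and its DMSO vehicle. Each deposited value is an intensity (linear scale) that the authors obtained with GCOS and MAS5, per the submitters' processing notes (versions not given in the sources used here). A trimmed mean, leaving out 2% at each end, was equal on the 4 arrays. Of 31099 probe sets, 57 controls were left out, and 22526 that reached the 40th percentile of their array on at least 2 arrays were tested. Of these, 16292 had 1 gene symbol, 366 several and 5868 none, by the platform annotation and RefSeq (GRCr8). The fit to log2(intensity + 16) used limma 3.58.1 (R 4.3.3), a mean for each group, all 20 arrays (residual degrees of freedom 10), a variance trend and no replicate block. Two-sided p-values were adjusted by the Benjamini-Hochberg method over all probe sets tested. The fit was tested on simulated data. The number of arrays limits the precision.

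Genes of no overlap were named by size (12 per direction, 1 symbol, at least 1.5-fold, unadjusted p under 0.05, both arrays of the higher group at the 40th percentile or above). Also named were the 5 per direction that rested most on vinclozolin replicate 2, a fixed set of testis genes some of which were not analysed here, and up to 4 members per list of smallest p. Other genes were named for their known role, after their values were seen. The probe set of highest mean stood for a gene in the 39 lists (803 genes tested). The members and lists were chosen with earlier results of these data known. Alternatives covered scaling, pseudocounts of 1 and 64, filters, the arrays in the fit, the trend, the replicate block, and each array left out in turn.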

Additional observations from a re-analysis of the deposited data

How the results depend on the processing

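No probe set passed the adjusted threshold in any setting run, for the vinclozolin effect or for its difference from the in utero effect. The unadjusted count of 610 became 1206 without a filter and ranged from 473 to 1237 when 1 array was left out. The difference from the in utero effect had 1376 probe sets at an unadjusted p under 0.05 without a filter and from 495 to 1561 with 1 array left out, against 846. Higher probe sets without overlap ranged from 6927 to 8234 and lower ones from 6402 to 7415 with 1 array left out, since 3 arrays overlap less often than 4. With at least 1.5-fold and an unadjusted p under 0.05, the 176 higher became 18 with a pseudocount of 64, 466 without a filter, 80 with a filter at the median, 90 with a filter on the 4 arrays, and 207 to 498 with 1 array left out. The 192 lower became 57, 361 and 118 under the first 3 of these and 173 to 520 with 1 array left out. The 256 probe sets that rested on vinclozolin replicate 2 became 763 at the smaller alternative fold limit, 48 at 2-fold and 54 with a pseudocount of 64. The cause of these shifts was not tested beyond the number of probe sets or arrays that each setting removes or adds. Of the 92 probe sets named, none changed sign under quantile normalization or a pseudocount of 1 or 64. The other filters, the trend, the replicate block and the fit to the 4 arrays leave the difference of a probe set unchanged, so its sign could not change there. Of the 92, 75 passed the filter at the median and 71 the filter on the 4 arrays. With 1 array left out, 12 changed sign without vinclozolin replicate 2, 10 without DMSO replicate 2, 3 without DMSO replicate 1 and 2 without vinclozolin replicate 1. Their log2 differences then ranged from -0.37 to 0.0025 for Star, -0.24 to 0.011 for Cyp11a1, -0.28 to 0.23 for Cyp17a1, -0.38 to 0.17 for Insl3, -0.67 to 0.39 for Amh, -0.36 to 0.16 for Dhh, -0.16 to 0.22 for Wt1, -0.070 to 0.24 for Fkbp5, -0.060 to 0.99 for Rhox5, -0.026 to 0.20 for Ahr, -0.035 to 0.15 for Atf4, -0.33 to 0.011 for Uty, -0.71 to 0.28 for Sry, -1.86 to 0.12 for Cyp21a1 and -0.020 to 0.071 for Eif2s3y. They ranged from -1.58 to 0.15 for Topbp1, -1.37 to 0.13 for Sf3b1, -0.17 to 0.086 for the second Tiparp probe set and -0.34 to 0.0046 for the second of Pdia3. For 3 Xist probe sets they ranged from -0.014 to 2.60, -0.054 to 2.16 and -0.025 to 1.81, the low value each time without vinclozolin replicate 2. The median of 13 of 39 lists changed sign without vinclozolin replicate 2 and of 4 after quantile normalization.

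Arrays share replicate numbers, and the labels do not tie the numbers to embryos. With the replicate number as a block, 0 probe sets passed the adjusted threshold and 821 had an unadjusted p under 0.05, and 1337 did for the difference from the in utero effect. With 1 array left out, its partner stood alone and took its spread from the other groups. The fit to the 4 arrays alone gives no value for the in utero difference. Deviations of same-numbered arrays from their group means correlated at 0.115 over probe sets, in 1 pair of groups.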
